A study of Mus musculus with 6 samples.

Results

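Laminins are the cross-shaped proteins that form the first polymer of every basement membrane, and 9 genes that encode their chains were followed in whole mouse kidneys at E13.5. The genes were Lama1, Lama2, Lama3, Lama4, Lama5, Lamb1, Lamb2, Lamb3 and Lamc1. They were taken with every probe set that the platform annotation gave to one of them alone, which made 17 of the 45101 probe sets on the array. A probe set is a group of short oligonucleotides that reads 1 transcript region. Of these 17, 12 probe sets from 7 genes passed the filter on low signal (a mean over all arrays of at least 5.89 log2) and were tested. The other 5 did not, among them every probe set of Lama3 and Lamb3.

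The 6 Affymetrix MOE430.2 arrays held 3 Fz4-/- and 3 Fz4+/+ samples, a pair from every one of 3 litters. Fzd4 encodes Fz4, to which Wnt ligands and the protein Norrin bind. The labels give no strain and no design of the Fz4 allele, and do not say whether a sample was 1 embryo or several, so p-values measure only the spread between these samples. The arrays had medians between 6.62 and 6.74 log2, and their number limits the precision. Both samples of litter 3 stood apart on the first principal component, which held 70.8% of the variance, at 48.7 in Fz4-/- and 70.1 in Fz4+/+, with the other 4 samples between -48.9 and -0.098. Fzd4, on its brightest probe set, read 4.37, 3.58 and 6.22 in the Fz4-/- samples of litters 1 to 3, against 11.21, 11.12 and 10.31 in the Fz4+/+ samples. The kidney markers Six2, Ret, Wt1, Foxd1 and Gdnf lay between 7.76 and 11.39 log2 in every array.

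A laminin molecule holds 1 alpha, 1 beta and 1 gamma chain, joined in a coiled coil. The alpha chain carries the main binding sites for integrins and dystroglycan, and the gamma1 chain, made from Lamc1, is shared by most laminins. In the kidney the forming nephron and glomerulus first lay down a laminin of alpha1, beta1 and gamma1. As the glomerulus matures, alpha5 takes the place of alpha1 and then beta2 that of beta1. In people, loss of the beta2 chain causes Pierson syndrome, a congenital nephrotic disease. All values below are log2 signals after RMA (robust multi-array average, the authors' summary of each probe set), so a difference of 1 is a doubling, and signals of different probe sets are not compared with each other as amounts. In whole organs, fewer cells of a type and less RNA per cell cannot be told apart.

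No laminin gene passed the test between the genotypes. limma, fitted over all 27022 tested probe sets with Benjamini-Hochberg adjustment at 0.05, called 0 of the 12 laminin probe sets and 0% of all. At an unadjusted p under 0.05 it counted 0 laminin probe sets, beside 0.884% of all, and leaving out the Fz4-/- sample of litter 1 made this 1, the second of Lama4, beside 1.495% of all. With the litter as a block the numbers were again 0 called and 0 at an unadjusted p under 0.05, beside 3.11% of all at the latter. The adjusted p from limma was 0.999988 for each of the 12. It was the same for Fzd4 on its brightest probe set, at a difference of -6.16 ± 0.68 (SE). A lack of calls in this test therefore does not show a lack of change. Every one of the 12 differences, Fz4-/- minus Fz4+/+, was nevertheless above 0, with a range from 0.02 to 0.34 and a median of 0.15. Over all tested probe sets 61.6% were above 0 and the median was 0.03. Quantile normalisation and equal array medians each left 11 of the 12 above 0, with Lama2 below. The count fell to 7, beside 53.0% of all, when the Fz4-/- sample of litter 3 was left out, and to 8, beside 56.9%, when the Fz4+/+ one of litter 1 was. Leaving out the Fz4+/+ sample of litter 2 moved the laminin median to 0.08 with 10 of 12 above 0, beside a median of -0.0013 and 49.5% of all. The values of the genotypes overlapped in all 12. Probe sets without overlap made up 2.42% of all tested with Fz4-/- higher and 1.21% with Fz4-/- lower. In litters 1 and 2 alike, 8 of the 12 were higher in Fz4-/-, beside 31.8% of all. They were Lama1, the tested Lama5 and Lamc1 probe sets, the first 2 of Lamb1 and Lamb2.

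The widest differences were in the alpha chain genes of the glomerulus, Lama1 and Lama5, and lay in litters 1 and 2. Lama1 encodes the alpha1 chain, which is largely an embryonic and epithelial one. It read 9.57, 9.59 and 9.51 in the Fz4-/- samples of litters 1 to 3, against 9.20, 9.09 and 9.52 in the Fz4+/+ samples. The Fz4-/- samples lay close together, and the Fz4+/+ sample of litter 3 sat among them while the other Fz4+/+ samples lay below. The mean was 9.56 ± 0.04 in Fz4-/- and 9.27 ± 0.22 in Fz4+/+ (SD, n = 3 each), a difference of 0.29 ± 0.14 (SE) or 1.22-fold, with a 95% interval from -0.05 to 0.63. Within litters 1 to 3 it was 0.37, 0.50 and -0.0064.

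Lama5 encodes the alpha5 chain, the main alpha chain of mature epithelial and glomerular basement membranes. Its brightest probe set read 9.63, 9.51 and 9.50 in the Fz4-/- samples of litters 1 to 3, against 9.16, 9.05 and 9.54 in the Fz4+/+ samples. The order of the samples was nearly that of Lama1, with the Fz4+/+ samples of litters 1 and 2 alone at the bottom. The difference was 0.30 ± 0.16 (SE), or 1.23-fold, with a 95% interval from -0.08 to 0.68. A second probe set read 8.59, 8.72 and 8.69 in Fz4-/-, against 8.14, 8.08 and 8.77 in Fz4+/+. It gave a difference of 0.34 ± 0.20 (SE), again with only the Fz4+/+ samples of litters 1 and 2 low. The last Lama5 probe set, below the filter, lay between 4.34 and 5.13 in all arrays.

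With both samples of litter 3 left out, which was tried only once their position had been seen, Lama1 differed by 0.44, and the brightest and the second Lama5 probe sets by 0.47 and 0.54. The adjusted p from limma was 0.998503 in all of them, and the unadjusted p was 0.0166, 0.0163 and 0.00848. Those 3 were the laminin probe sets at an unadjusted p under 0.05 in that setting, 3 of 12 beside 4.08% of all tested. With only the Fz4+/+ sample of litter 3 left out there were 4, the same 3 and the second of Lamc1, beside 6.38% of all, with an adjusted p from limma of 0.68906 in all 4.

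Marker lists of epithelial and vascular cells shared 1 low sample with these 2 genes. The mean of the 10 ureteric epithelium markers was 8.60, 8.74 and 8.73 in the Fz4-/- samples of litters 1 to 3, against 8.45, 8.25 and 8.55 in the Fz4+/+ samples. That of the 6 podocyte markers on the array was 9.02, 9.08 and 8.94 in Fz4-/-, against 8.90, 8.61 and 8.89 in Fz4+/+, with the defining slit diaphragm gene Nphs1 below the filter. That of the 9 early nephron markers was 9.66, 9.64 and 9.45, against 9.52, 9.19 and 9.20. In each of these lists, as in Lama1 and Lama5, the Fz4+/+ sample of litter 2 was the lowest of all 6. The same held for the endothelial list, at 9.04, and this array also had the lowest median signal, 6.62, and the highest mean of the striated muscle markers, 8.58. In the nephron progenitor and renal stroma lists this array was not the lowest, at 9.74 and 10.73. Their lowest means were 9.57 in the Fz4-/- and 10.40 in the Fz4+/+ sample of litter 1. The next lowest in the ureteric and endothelial lists was the Fz4+/+ sample of litter 1, as in the 2 genes. In the podocyte and early nephron lists it was the Fz4+/+ sample of litter 3. The early nephron means of the Fz4+/+ samples of litters 2 and 3 were close, at 9.188 and 9.196. In that of litter 2, Hnf4a read 7.10, against 8.42 to 9.28 elsewhere, and Lrp2 5.19, against 6.07 to 6.97. Cubn, below the filter, was instead highest in that sample, at 6.67. The part of these cells in the laminin differences was not tested.

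**Figure D1:**
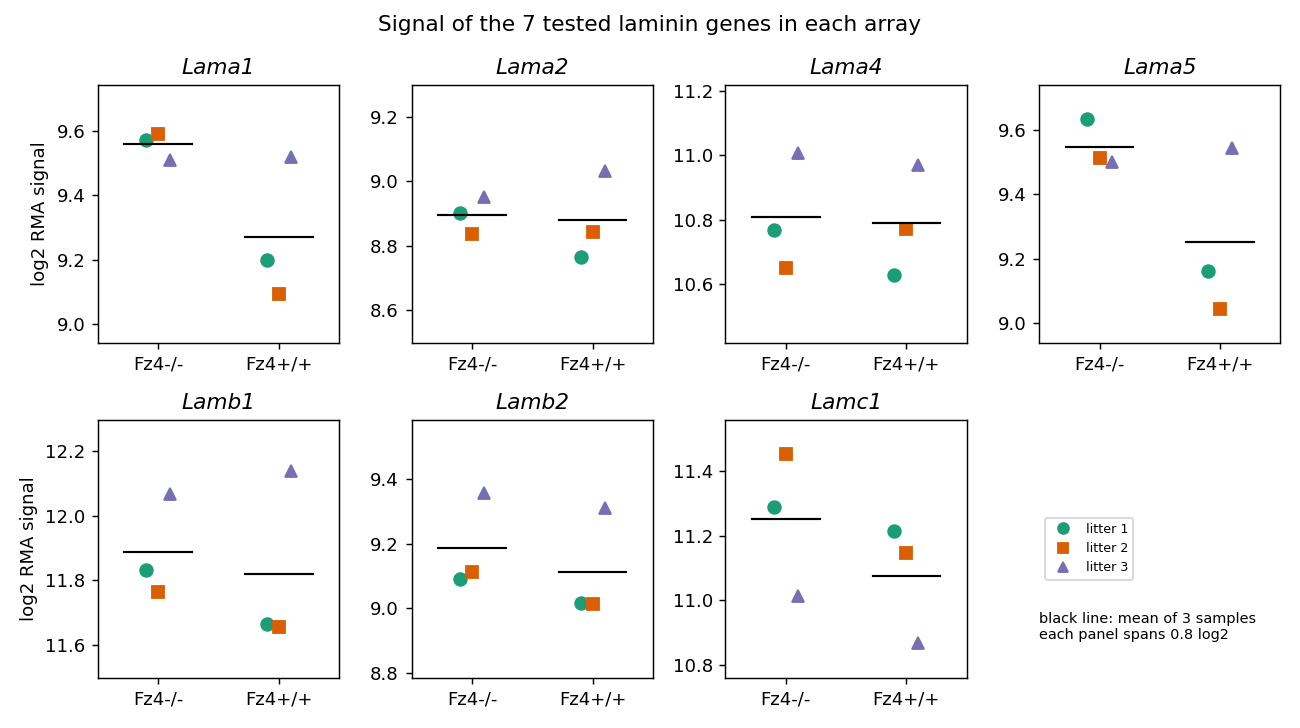
Log2 RMA signal (vertical axis, 0.8 log2 in each panel) of the 7 tested laminin genes on their brightest probe set, with Fz4-/- left and Fz4+/+ right, a symbol for each sample by litter and a line for the mean of 3 samples. In Lama1 and Lama5 the Fz4+/+ samples of litters 1 and 2 lie below the other 4 samples, whereas in Lama2, Lama4, Lamb1 and Lamb2 both samples of litter 3 lie above the others, and in Lamc1 below them.

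The other alpha chains showed little between the genotypes. Lama4 encodes the alpha4 chain of vessel walls and mesenchyme, which has a short N-terminal arm. Its brightest probe set read 10.77, 10.65 and 11.01 in the Fz4-/- samples of litters 1 to 3, against 10.63, 10.77 and 10.97 in the Fz4+/+ samples. Both genotypes spanned nearly the same range, and litter 3 was highest in each. The difference was 0.02 ± 0.15 (SE), with a 95% interval from -0.34 to 0.38, and the standard error with the litter as a block was 0.10. The mean of the 10 endothelial markers was 9.32, 9.27 and 9.29 in Fz4-/- and 9.15, 9.04 and 9.24 in Fz4+/+. A second Lama4 probe set lay near the filter, at 5.87, 6.69 and 6.43 in Fz4-/-, against 6.23, 6.17 and 6.13 in Fz4+/+. Its differences in litters 1 to 3 were -0.36, 0.52 and 0.30, opposite in sign to those of the brightest, 0.14, -0.12 and 0.04, in litters 1 and 2.

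Lama2 encodes the alpha2 chain of the sheaths of muscle fibres and Schwann cells, whose loss causes muscular dystrophy in people and mice. It read 8.90, 8.84 and 8.95 in the Fz4-/- samples of litters 1 to 3, against 8.76, 8.84 and 9.03 in the Fz4+/+ samples. The groups overlapped and litter 3 was highest in each, with a difference of 0.02 ± 0.11 (SE) and a 95% interval from -0.26 to 0.29. The striated muscle markers varied far more than Lama2. Their mean was 7.63, 6.16 and 7.82 in Fz4-/-, against 7.85, 8.58 and 7.65 in Fz4+/+. Both samples of litter 2 had the same Lama2 signal to 2 decimals. The part of muscle in the Lama2 signal was not tested.

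Lama3, whose alpha3 chain anchors skin and other lining epithelia to their base, was below the filter on both of its probe sets, at 4.75 to 5.32 and 4.16 to 5.24 over the 6 arrays. Lamb3, which encodes the beta3 partner of alpha3, lay between 4.41 and 5.06. No detection call was available, so these signals are given as low rather than absent, and neither gene was tested. Over the 5 probe sets below the filter the largest difference between the genotypes was 0.38, in the dimmest Lama5 probe set, where the exact permutation p was 0.2 against the smallest possible of 0.1.

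Among the beta chain probe sets, 3 of 4 tested ones had both samples of litter 3 above all others, beside 36.9% of all tested. Lamb1 encodes beta1, the beta chain of embryonic laminin and of most tissues. Its brightest probe set read 11.83, 11.76 and 12.07 in the Fz4-/- samples of litters 1 to 3, against 11.66, 11.66 and 12.14 in the Fz4+/+ samples. The samples of litter 3 were highest in both genotypes. The difference between the genotypes was 0.07 ± 0.17 (SE), and the standard error with the litter as a block was 0.10. A second probe set was also highest in litter 3, at 10.99, 10.87 and 11.24 in Fz4-/- against 10.74, 10.84 and 11.28 in Fz4+/+. The dimmest of the tested ones did not show this, at 8.87, 8.83 and 8.89 in Fz4-/- against 8.96, 8.53 and 8.67 in Fz4+/+. One more, below the filter, lay between 3.91 and 4.69.

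Lamb2 encodes beta2, the beta chain of the mature glomerular basement membrane and of the neuromuscular synapse. It read 9.09, 9.11 and 9.36 in the Fz4-/- samples of litters 1 to 3, against 9.02, 9.01 and 9.31 in the Fz4+/+ samples. Litter 3 was again highest in both. Lamb2 was higher in Fz4-/- in every litter, by 0.08, 0.10 and 0.05. The difference was 0.07 ± 0.14 (SE), with a 95% interval from -0.26 to 0.41, and the standard error with the litter as a block was 0.09.

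Lamc1 encodes gamma1, the chain that both the embryonic and the mature glomerular laminins use. Its brightest probe set read 11.29, 11.45 and 11.01 in the Fz4-/- samples of litters 1 to 3, against 11.21, 11.15 and 10.87 in the Fz4+/+ samples. Litter 3 was lowest in both genotypes, opposite to Lamb1 and Lamb2. The second Lamc1 probe set did not show this, at 10.33, 10.24 and 10.30 in Fz4-/- against 10.06, 9.73 and 10.30 in Fz4+/+. Both were higher in Fz4-/- in all 3 litters, the second by only 0.0023 in litter 3. The differences were 0.18 ± 0.16 and 0.26 ± 0.16 (SE), and the standard errors with the litter as a block were 0.10 and 0.13. In all, 3 of the 12 laminin probe sets, these 2 and Lamb2, were higher in Fz4-/- in every litter, beside 14.2% of all tested, and 0 were lower in every litter, beside 7.28%.

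**Figure D2:**
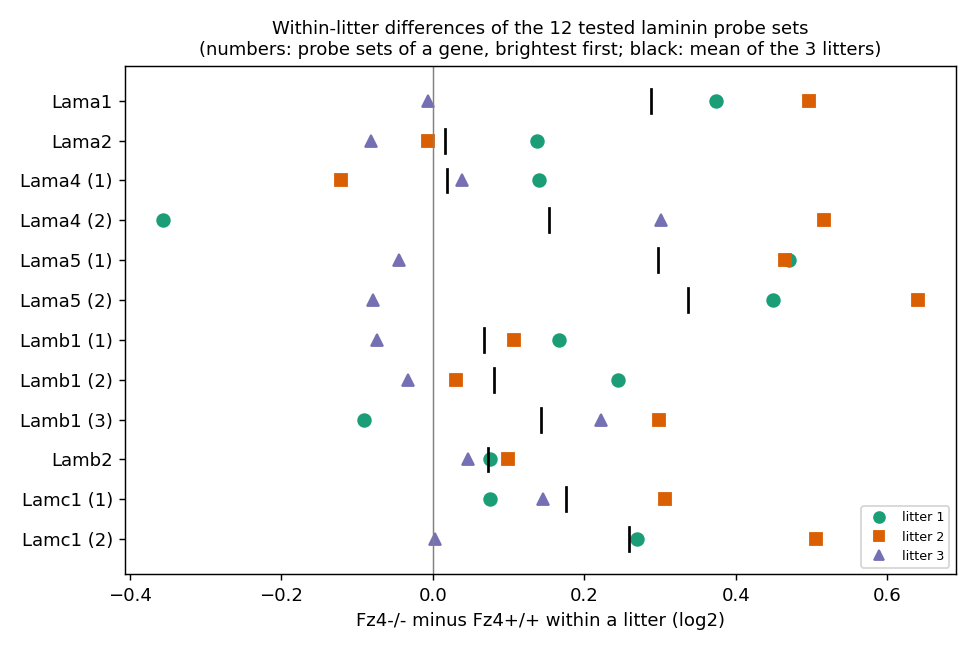
Difference Fz4-/- minus Fz4+/+ within each litter (horizontal axis, log2) for the 12 tested laminin probe sets, with a symbol for each litter and a black mark for the mean of the 3 litters. The litter 3 differences of Lama1, Lama5 and the first 2 Lamb1 probe sets lie just below 0, from -0.08 to -0.0064, while those of litters 1 and 2 lie above 0.

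Within litters 1 and 2 the laminin medians lay above those of all tested probe sets, and in litter 3 they did not. In litter 1 their median difference was 0.15 with 10 of 12 above 0, where the median of all tested probe sets was -0.0066 and 48.5% were above 0. In litter 2 it was 0.30 with 10 of 12 above 0, where the median of all was 0.12 and 68.2% were above 0. In litter 3 it was -0.0021 with 6 of 12 above 0, where the median of all was -0.00025 and 49.9% were above 0. The 12 probe sets come from 7 genes, so probe sets of a gene are not independent.

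Whether the laminin genes varied among litters beyond the spread within them was asked with limma's F-test in a fit of litter and genotype. It called 0 of 12 laminin probe sets and 0% of all tested. At an unadjusted p under 0.05 it counted 2 laminin probe sets, the brightest and second of Lamb1 (adjusted p of 0.216 and 0.215), beside 23% of all. That count was 0 when any 1 sample was left out, except the Fz4+/+ sample of litter 1, where it was 1 beside 14.8% of all. In the other 5 settings the share of all ran from 6.52% to 33.0%. With a variance prior that follows the signal and resists outliers the F-test called 3 laminin probe sets. They were these 2 of Lamb1 (adjusted p of 0.0130 and 0.0227) and the brightest of Lamc1 (0.0318), beside 11.1% of all tested. Both samples of litter 3 lay above all others in 5 of the 12, beside 36.9% of all. The 5 were Lama2, the brightest of Lama4, the first 2 of Lamb1 and the Lamb2 probe set. They lay below all others in 1, the brightest of Lamc1, beside 15.5%. The labels do not say in what the litters differed.

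Mature and embryonic glomerular chain genes were set against each other as a log2 ratio, the difference of 2 genes within the same array. It was Lama5 minus Lama1 for the alpha chains and Lamb2 minus Lamb1 for the beta chains. In whole kidneys at E13.5 alone, the ratio does not follow a switch over time and cannot be placed in the glomerulus. Only changes of such a ratio between arrays carry meaning, since each probe set has its own brightness. The alpha ratio was 0.06, -0.08 and -0.01 in the Fz4-/- samples of litters 1 to 3, against -0.04, -0.05 and 0.03 in the Fz4+/+ samples. It spanned 0.14 over all 6 arrays, while Lama1 alone spanned 0.50 and Lama5 0.59. The mean was -0.0098 ± 0.07 in Fz4-/- and -0.02 ± 0.04 in Fz4+/+ (SD, n = 3 each), a difference of 0.0089, with an exact two-sided permutation p of 0.9. With the second Lama5 probe set, a choice made once the values were known, the ratio spanned 0.31, the difference was 0.05 and the exact permutation p 0.7.

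The beta ratio was -2.74, -2.65 and -2.71 in the Fz4-/- samples of litters 1 to 3, against -2.65, -2.64 and -2.83 in the Fz4+/+ samples. The groups overlapped, and the ratio spanned 0.19 over the 6 arrays, against 0.48 for Lamb1 and 0.34 for Lamb2. The mean was -2.70 ± 0.05 in Fz4-/- and -2.71 ± 0.11 in Fz4+/+ (SD, n = 3 each), a difference of 0.0065 with an exact two-sided permutation p of 1. With the second Lamb1 probe set, likewise a later choice, the ratio spanned 0.24 and the difference was -0.0073, at an exact permutation p of 1. With the dimmest tested Lamb1 probe set these were 0.58 and -0.07, at an exact permutation p of 0.7, so the narrow span held for the brighter Lamb1 probe sets and not for this one. On the brightest probe sets the sign of the beta ratio's difference turned when the Fz4-/- sample of litter 2 was left out, at -0.02, or the Fz4+/+ one of litter 3, at -0.05. That of the alpha ratio turned when the Fz4-/- sample of litter 1 was left out, at -0.03, or the Fz4+/+ one of litter 2, at -0.0059. An exact test of 3 against 3 cannot go below 0.1, so it could not have passed 0.05 for either ratio.

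**Figure D3:**
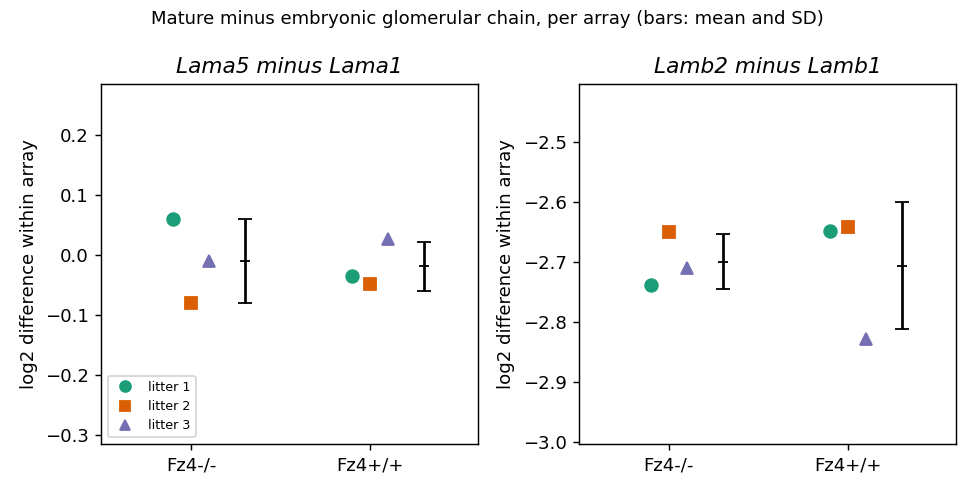
Log2 difference between the mature and the embryonic chain gene within each array (vertical axes, 0.6 log2 each), with Fz4-/- left and Fz4+/+ right, a symbol for each sample by litter, and bars for the mean and SD of 3 samples. On the brightest probe sets the alpha ratio stays between -0.08 and 0.06 in all 6 arrays and the beta ratio between -2.83 and -2.64.

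The starts of 3 of these 4 chain genes are shown because their ratios carry the comparison above. RefSeq promoter windows on GRCm38.p6, each 300 bases from upstream of a gene's start into it, were at hand for 5 of the 9 laminin genes. They are written 5′ to 3′ on the gene's strand. Capitals mark the GC box, GGGCGG or CCGCCC, and the core of the TCF/LEF motif, CTTTG or CAAAG, through which beta-catenin acts in Wnt signalling. The windows are Lama5 at chr2:180225810-180226109 on the minus strand, Lamb1 at chr12:31265043-31265342 on the plus strand and Lamb2 at chr9:108479612-108479911 on the plus strand.
Lama5: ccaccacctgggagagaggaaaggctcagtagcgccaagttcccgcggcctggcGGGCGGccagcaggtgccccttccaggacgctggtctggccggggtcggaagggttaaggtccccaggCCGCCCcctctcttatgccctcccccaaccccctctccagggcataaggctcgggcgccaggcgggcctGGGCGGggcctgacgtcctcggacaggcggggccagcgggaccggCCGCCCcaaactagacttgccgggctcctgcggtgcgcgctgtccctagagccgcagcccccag
Lamb1: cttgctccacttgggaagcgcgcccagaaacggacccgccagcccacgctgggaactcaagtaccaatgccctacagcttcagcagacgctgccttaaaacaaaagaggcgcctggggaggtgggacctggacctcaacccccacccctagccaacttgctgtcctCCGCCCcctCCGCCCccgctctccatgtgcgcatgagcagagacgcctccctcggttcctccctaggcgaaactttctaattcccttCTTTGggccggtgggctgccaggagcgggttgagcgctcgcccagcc
Lamb2: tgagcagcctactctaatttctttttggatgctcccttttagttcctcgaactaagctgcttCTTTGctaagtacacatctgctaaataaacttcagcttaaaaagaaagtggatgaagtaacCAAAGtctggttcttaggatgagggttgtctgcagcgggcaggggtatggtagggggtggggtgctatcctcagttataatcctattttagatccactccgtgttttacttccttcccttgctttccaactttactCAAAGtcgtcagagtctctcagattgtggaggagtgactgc

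The 3 windows differ in make-up. The Lama5 window was 72.7% G and C with 24 CpG dinucleotides and 4 GC boxes, and held no TCF/LEF core. The Lamb1 window was 63.7% G and C with 18 CpG, 2 GC boxes and 1 TCF/LEF core. The Lamb2 window was 44% G and C with 4 CpG, no GC box and 3 TCF/LEF cores. Over all 32851 windows of the table the medians were 52.7% G and C and 7 CpG, the GC box was present in 35.7% and the TCF/LEF core in 53.9%. The 2 motifs share no letters that would let them overlap by more than an end base. Such matches describe these letters alone and do not mark a bound site.

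Over the 6 arrays the tested laminin genes other than Lamc1 followed 2 patterns, described here by Pearson's r on the brightest probe sets. The points share litters, so these values describe the arrays and carry no test. Lama1 and Lama5 followed each other at 0.980, and Lama5 ranked sixth among 12534 other genes by its likeness to Lama1. Lamb1 and Lamb2 followed each other at 0.966, Lama2 and Lamb1 at 0.939 and Lama4 and Lamb1 at 0.893, all of them with litter 3 high. Lamb2 was only at rank 297 by its likeness to Lamb1, and Lamb1 at rank 314 for Lama2 and 459 for Lama4. Both samples of litter 3 lay above all others in 36.9% of all tested probe sets. Lamc1 on its brightest probe set ran against these genes with litter 3 high, at -0.838 with Lama4 and -0.717 with Lamb1. Its r with Lama1 was 0.0943. The second Lamc1 probe set was instead lowest in the Fz4+/+ samples of litters 1 and 2, as Lama1 was.

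The genes most like each glomerular chain gene came from many functions. Those most like Lama1 were Mthfd1, an enzyme of folate metabolism, at 0.993, Depdc5 at 0.989 and Galnt2, which starts O-linked sugar chains, at 0.989. Mthfd1 also led for Lama5 at 0.985, followed by Hrc at 0.985 and Tada3 at 0.982. Those most like Lamb1 were Csf1r, the receptor that defines macrophages, at 0.9995, Tsc2 at 0.999 and Trappc11 at 0.997. Those most like Lamb2 were the glycolytic enzyme gene Ldha at 0.999, Ntng1 at 0.998 and St6galnac2 at 0.997.

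No tested gene that laminins work with passed the test between the genotypes either. Of 24 genes for other laminin family members, laminin receptors and basement membrane partners, 23 had a probe set of their own and 17 passed the filter. limma called 0 of the 17 in either direction, beside 0% of all tested probe sets, and 0 were at an unadjusted p under 0.05, beside 0.884%. The difference was above 0 in 16 of 17, beside 61.6% of all, with a median of 0.08 beside 0.03 over all tested probe sets. The 4 with the smallest unadjusted p were Bcam, Col4a2, Col4a4 and Itga8. Bcam, a laminin alpha5 receptor, read 8.290, 8.243 and 7.996 in the Fz4-/- samples of litters 1 to 3, against 8.18, 7.82 and 7.73 in the Fz4+/+ samples. Its difference was 0.27 ± 0.16 (SE), and it was higher in Fz4-/- in each litter, by 0.11, 0.42 and 0.27. Col4a2, the alpha2 chain of the ubiquitous collagen IV, differed by 0.16 ± 0.12 (SE), with -0.06 in litter 3.

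Col4a4, a collagen IV chain of the mature glomerular basement membrane, differed by 0.37 ± 0.35 (SE), with 6.77, 6.33 and 7.56 in the Fz4-/- samples and 6.24, 6.36 and 6.95 in the Fz4+/+ samples of litters 1 to 3. Itga8, the receptor for nephronectin on the metanephric mesenchyme, was the only one of the 17 below 0, at -0.11 ± 0.10 (SE). Itgb1 and Itga6, the subunits of a main laminin integrin, differed by 0.02 ± 0.16 and 0.10 ± 0.12 (SE). Dag1, which makes dystroglycan, differed by 0.09 ± 0.09 (SE). Its values, from 10.86 to 10.93 in Fz4-/- and from 10.76 to 10.82 in Fz4+/+, did not overlap. The same held, with Fz4-/- higher, for 2.42% of all tested probe sets. The laminin binders Nid1, Hspg2 and Agrn differed by 0.0021, 0.06 and 0.08.

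Across litters the 4 partner genes with the smallest p in the F-test were Col4a4, Col4a6, Itgb1 and Bcam, at an adjusted p of 0.167, 0.196, 0.212 and 0.275. Col4a4 and Col4a6 were highest in litter 3, as were Lamb1 and Lamb2 on their brightest probe sets. Itgb1, at 11.43, 11.30 and 11.08 in Fz4-/- and 11.42, 11.31 and 10.999 in Fz4+/+, was lowest there. So was Lamc1 on its brightest probe set, but not on its second. None passed the threshold.

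**Figure D4:**
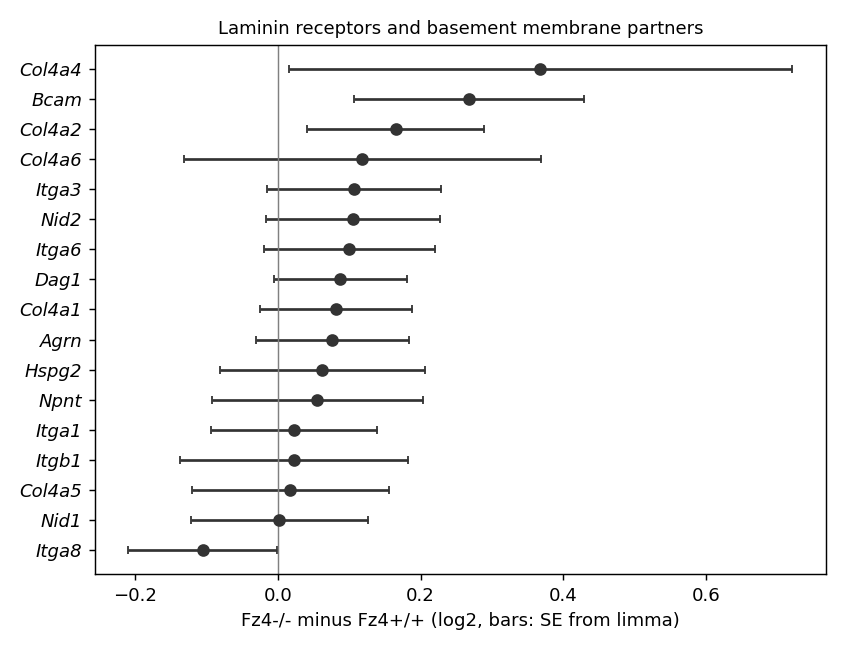
Difference Fz4-/- minus Fz4+/+ (horizontal axis, log2) of the 17 tested laminin receptor and basement membrane genes, with bars for limma's standard error. All but Itga8 lie above 0, from 0.0021 for Nid1 to 0.37 for Col4a4, and none passed the test.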

How the data were processed

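Biotin-labelled cRNA from whole kidneys was read on the arrays. The authors summarised them with RMA (version not given), per the submitters' processing notes. The deposited log2 values, from 2.22 to 14.79, were not normalised further. RMA makes the arrays' distributions nearly equal and compresses differences near background. No detection calls were made.

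The platform annotation gave 1 gene for 34958 probe sets, several for 932 and none for 9211, and only the first kind was named. Entrez numbers matched RefSeq for 34754 and changed 0 symbols. After 64 control probe sets were dropped, those at or above the 40th percentile of mean signal were tested with limma 3.58.1 (R 4.3.3; lmFit, eBayes, Benjamini-Hochberg, 0.05), with genotype as the sole term; litters were compared by an F-test with genotype as a covariate. The fits were tested on simulated data. A gene's brightest probe set stood for it where 1 was needed. Ratios were compared by exact permutation.

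Replicate numbers pair samples by litter, per the labels; deviations from the genotype means correlated by 0.577, 0.178 and 0.809 in litters 1 to 3. Partner genes named were the 4 with the smallest p in each test, plus main laminin receptors and binders picked with their values known; for likeness, the 3 genes with the highest r. Members, lists and tests were chosen with earlier results of these data known. Alternatives covered the filter, normalisation, variance prior, array weights, probe set choice, the litter block and each sample left out.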

Additional observations from a re-analysis of the deposited data

How the results depend on the processing

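The laminin count between the genotypes was 0 under every alternative run: the litter as a replicate block, either filter, either normalisation, the other variance prior, array weights, no litter 3 and each sample left out. Over all probe sets it was 0 too, except 2 with array weights, which gave the Fz4-/- sample of litter 2 a weight of 8.81. The replicate block changed no call. In the litter test the laminin count was 0 except 3 with the variance prior with trend and robust, where 2990 were called overall. The overall count was 3 with the stricter filter and 3 with the litter as the sole term. With a sample left out it ran from 0 to 1506, the highest being without the Fz4-/- sample of litter 2, and leaving out the Fz4+/+ sample of litter 2 gave 326.

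The beta ratio turned to -0.0329 after quantile normalisation, -0.0236 when a gene's probe sets were averaged and -0.0499 without litter 3. With the second and the dimmest tested Lamb1 probe sets it was -0.00728 and -0.0699. With a sample left out it ran from -0.0549 to 0.0387, and the alpha ratio from -0.0262 to 0.0435. With the 3 within-litter differences (replicate block) the exact permutation could not go below 0.25. Lama2 turned to -0.0276 after quantile normalisation and -0.00280 with equal array medians. With a sample left out Lama2 ran from -0.0415 to 0.0926, Lama4 from -0.0805 to 0.109, Lamb1 from -0.0230 to 0.227 and Lamb2 from -0.0115 to 0.172. Lama1, Lama5 and Lamc1 kept their sign, at 0.200 to 0.412, 0.194 to 0.444 and 0.0718 to 0.295. The cause of these changes was not tested. Lama3 and Lamb3 lay too low to be tested.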
